A study of Mus musculus with 8 samples.

Results

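The genes described here are those for activin and inhibin subunits, follistatins and activin receptors, *Inhba*, *Inhbb*, *Fst*, *Fstl1*, *Fstl3*, *Acvr1*, *Acvr1b*, *Acvr2a* and *Acvr2b*, which are taken by their symbols. All 9 were found by symbol among the 54532 gene identifiers in the files, and all 9 passed the filter on low expression that left 22544 genes to be tested. Activins are secreted dimers of inhibin β subunits. *Inhba* and *Inhbb* encode the βA and βB subunits, and the product of a separate gene, *Inha*, pairs with a β subunit to form inhibin, which opposes activin. An activin dimer binds a type II receptor, encoded by *Acvr2a* or *Acvr2b*, which then recruits and phosphorylates a type I receptor. The usual type I receptor for activin is ALK4, the product of *Acvr1b*, which passes the signal to Smad2 and Smad3, the same transducers that TGF-β uses. *Acvr1* encodes ALK2, a type I receptor that mainly carries BMP signals. Follistatin (*Fst*) and follistatin-like 3 (*Fstl3*) are secreted proteins that wrap around activin and keep it from its receptors, whereas follistatin-like 1 (*Fstl1*) is a secreted glycoprotein that shares the follistatin domain without being a strong activin antagonist.

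The RNA came from wild-type mouse brain pericytes, the contractile cells that surround capillaries, grown as primary cultures in medium with serum and passaged several times. TGF-β1, a secreted cytokine, was added at 5 μg/mL to 4 cultures, 4 received vehicle and all were sampled at 48 h. The methods give the study's mice as males of 4 and 6 months, without saying which of them the pericytes came from. The methods speak of isolates that received both treatments, but the labels number the vehicle cultures 1 to 4 and the TGF-β1 cultures 5 to 8 without pairing them, so the groups were compared as unpaired. The counts summed to 45255235 to 47651397 per culture, and 3 counts corresponded to 0.0631 to 0.0658 CPM. CPM, the unit used throughout, is a gene's count relative to the TMM-adjusted size of its library.

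Of a list of 14 pericyte markers, 8 had a mean of at least 1 CPM, led by *Pdgfrb*, and *Kcnj8*, *Abcc9* and *Vtn* stayed under 0.5 CPM in every culture. Fibroblast markers were abundant, with a summed level of 3719 to 3879 CPM with vehicle and 5328 to 5570 CPM with TGF-β1, of which *Col1a1* and *Col1a2* made up most. Of the 9 on that list, 4 had a mean of at least 1 CPM, and *Lum* and *Slc6a13* were under 0.5 CPM throughout. Of the 7 fibroblast markers tested, 2 were higher and 2 lower with TGF-β1 (edgeR adjusted p under 0.05), so the list did not rise as a whole. Of 11 endothelial markers, 7 had a mean of at least 1 CPM, and *Cldn5*, *Tie1*, *Emcn* and *Erg* were under 0.5 CPM throughout. *Cdh5* led at a mean of 375 CPM with vehicle and 367 CPM with TGF-β1. Without *Cdh5* the endothelial sum with vehicle was 108 to 114 CPM. The endothelial sums were 479.6 to 490.7 CPM with vehicle and 479.4 to 504.4 CPM with TGF-β1, with 1 marker higher and 1 lower. Sums for lists of astrocyte (248 to 260 and 224 to 236 CPM), macrophage and microglia (109 to 114 and 109 to 111 CPM), oligodendrocyte (4.12 to 5.52 and 5.38 to 6.11 CPM) and neuron markers (4.23 to 5.42 and 8.82 to 11.7 CPM) are given in the same order. The largest share of these was *Gja1* among the astrocyte markers (means of 195 and 190 CPM), *Tmem119* among the macrophage and microglia markers (102 and 98.5 CPM) and *Tubb3* among the neuron markers (2.11 and 7.91 CPM). Without the leading gene, the vehicle sums were 54.9 to 61.9 CPM for astrocyte and 8.55 to 9.32 CPM for macrophage and microglia markers. A mean of at least 1 CPM was reached by 5 of 7 astrocyte and 3 of 9 macrophage and microglia markers. Of the 6 astrocyte markers tested, 2 were higher and 2 lower with TGF-β1. Of the 8 macrophage and microglia markers tested, 1 was higher and 0 lower. Among oligodendrocyte markers 1 was higher and 1 lower of 4 tested, and among neuron markers 1 was higher and 0 lower of 3. *Aqp4* among the astrocyte markers and *P2ry12*, *Itgam* and *Adgre1* among the macrophage and microglia markers were under 0.5 CPM throughout. So were *Olig1* and *Olig2* (oligodendrocyte) and *Rbfox3*, *Snap25* and *Nefl* (neuron). The pericyte sums were 580 to 599 CPM with vehicle and 759 to 788 CPM with TGF-β1, with 5 markers higher and 3 lower, and the mean of *Pdgfrb* alone went from 202 to 291 CPM. In such bulk samples fewer cells of a type and less RNA per cell cannot be told apart, and the part of these marker changes in the results below was not tested.

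The stretches of genome just before the start of 4 of these genes are shown first, for genes that rose (*Inhba*, *Inhbb* and *Fstl3*) and, for comparison, for a receptor gene that was not called (*Acvr2a*). Whether these windows take part in the response was not tested. Each is the 250 bases before the RefSeq start on GRCm38.p6, written 5′ to 3′ on the gene's own strand. Capitals mark CAGAC, the short core of Smad binding elements, and TATAAA, each on either strand. The *Inhba* window lies at chr13:16011601-16011850 on the plus strand, that of *Inhbb* at chr1:119422249-119422498 on the minus strand, that of *Fstl3* at chr10:79777024-79777273 on the plus strand and that of *Acvr2a* at chr2:48813859-48814108 on the plus strand.
Inhba: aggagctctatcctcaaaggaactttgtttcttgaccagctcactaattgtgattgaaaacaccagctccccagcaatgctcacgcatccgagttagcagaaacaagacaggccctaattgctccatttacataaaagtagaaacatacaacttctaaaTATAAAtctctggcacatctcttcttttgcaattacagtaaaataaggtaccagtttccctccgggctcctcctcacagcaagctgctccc
Inhbb: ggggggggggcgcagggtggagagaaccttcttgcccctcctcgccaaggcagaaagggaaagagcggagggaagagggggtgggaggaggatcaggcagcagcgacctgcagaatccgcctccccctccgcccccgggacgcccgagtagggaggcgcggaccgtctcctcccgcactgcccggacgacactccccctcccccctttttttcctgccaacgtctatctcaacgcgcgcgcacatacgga
Fstl3: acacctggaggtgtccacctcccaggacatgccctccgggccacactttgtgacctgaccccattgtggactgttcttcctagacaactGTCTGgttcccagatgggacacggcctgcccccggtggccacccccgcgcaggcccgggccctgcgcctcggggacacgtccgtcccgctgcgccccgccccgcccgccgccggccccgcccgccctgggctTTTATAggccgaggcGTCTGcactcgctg
Acvr2a: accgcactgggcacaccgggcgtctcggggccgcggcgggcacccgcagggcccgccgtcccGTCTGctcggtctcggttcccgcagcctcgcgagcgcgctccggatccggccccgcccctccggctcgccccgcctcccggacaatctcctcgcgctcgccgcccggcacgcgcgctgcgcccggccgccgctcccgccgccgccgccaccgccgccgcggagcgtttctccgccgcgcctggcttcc

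The windows differed in composition. That of *Inhba* held 43.2% G and C and a single TATAAA 91 bases before the start, while those of *Inhbb*, *Fstl3* and *Acvr2a* held 68%, 71.2% and 82%. *Fstl3* held CAGAC at 2 places, 161 and 14 bases before the start, and TATAAA in reverse 29 bases before it. CAGAC was also in the windows of *Acvr2a* and *Acvr2b*, which were not called, and in none of those of *Inhba*, *Inhbb*, *Fstl1*, *Acvr1* and *Acvr1b*. It was thus in 3 of the 8 windows held for these genes, against 42.2% of all 32851 windows of this length. The palindromic Smad element GTCTAGAC (0.167% of all windows) and the AP-1 site TGANTCA (6.75%) were in none of the 8, and TATAAA (12.4%) was in 2. No window was held for *Fst*.

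Of the 9 genes, 7 rose with TGF-β1 and none fell (edgeR quasi-likelihood test, adjusted p under 0.05). Among all genes tested, 20.9% rose and 20.3% fell. No member fell at an unadjusted p under 0.05 either (0 members), nor in DESeq2 (0 members). In the same 7 genes every TGF-β1 culture lay above every vehicle culture, which held for 19.1% of all genes tested, and in the other 2 the groups overlapped. The median log2 fold change was 0.62 over the 9 genes and -0.01 over all genes tested. A called rise with a log2 fold change over 1 was found in 3 of the 9, *Inhba*, *Fst* and *Fstl3*, and in 2.59% of all genes tested. The 9 genes were chosen with earlier results of these data known, so these comparisons with all genes are only a description.

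**Figure D1:**
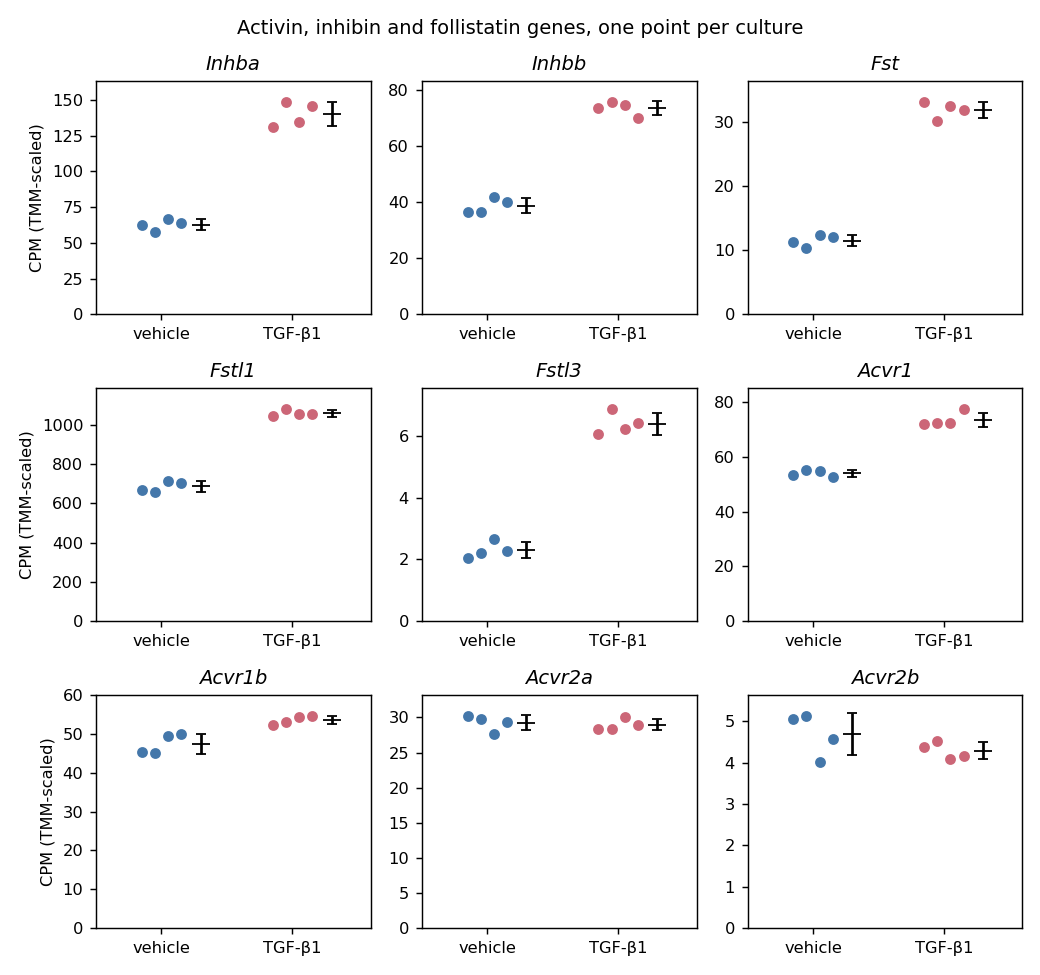
Level of each of the 9 genes in every culture (TMM-scaled CPM, axes from 0 and different for each gene), with vehicle cultures 1 to 4 in blue, TGF-β1 cultures 5 to 8 in red, and the mean with its SD in black. The groups are apart in 7 genes, by most in *Fst* and *Fstl3*, and overlap in *Acvr2a* and *Acvr2b*.

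Both genes for activin subunits rose. *Inhba* (ENSMUSG00000041324, chromosome 13, 16011851 to 16031621 of GRCm38, plus strand) stood at 62.6, 57.3, 66.4 and 64.0 CPM in vehicle cultures 1 to 4 and at 131, 148, 134 and 146 CPM in TGF-β1 cultures 5 to 8. Even the lowest TGF-β1 culture was far above the highest vehicle culture. The means were 62.6 ± 3.85 and 140 ± 8.42 CPM (SD, n = 4 each), a log2 fold change of 1.16 (standard error 0.05, edgeR adjusted p = 3.65e-11) or 2.24-fold. *Inhbb* (ENSMUSG00000037035, chromosome 1, 119415465 to 119422248, minus strand) stood at 36.3, 36.6, 41.9 and 39.9 CPM with vehicle and at 73.5, 75.5, 74.5 and 69.8 CPM with TGF-β1. The groups were again far apart, with a mean of 38.7 ± 2.70 against 73.3 ± 2.50 CPM (SD, n = 4 each). Its log2 fold change was 0.92 (standard error 0.04, edgeR adjusted p = 3.16e-22), or 1.90-fold.

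The inhibin α subunit gene, *Inha*, did not rise with them. It stood at 6.34, 6.36, 6.61 and 5.89 CPM with vehicle and at 5.98, 6.03, 4.74 and 5.85 CPM with TGF-β1, so that the groups overlapped. Its log2 fold change was -0.16, with a 95% interval from -0.34 to 0.03 (edgeR adjusted p = 0.183). Per kb of exon, the level of *Inhba* was 2.08 to 2.51 times that of *Inha* in the vehicle cultures and 5.06 to 6.55 times in the TGF-β1 cultures. The genes for the other β subunits were too low to be tested, *Inhbc* at no more than 0.0873 CPM and *Inhbe* at no more than 0.238 CPM in any culture.

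The antagonist genes *Fst* and *Fstl3* rose, with larger estimated fold changes than the subunit genes. *Fst* (ENSMUSG00000021765, chromosome 13, 114452290 to 114458951, minus strand) stood at 11.30, 10.35, 12.40 and 12.02 CPM with vehicle and at 33.10, 30.21, 32.58 and 31.94 CPM with TGF-β1. Its lowest TGF-β1 culture was well above its highest vehicle culture. The mean went from 11.5 ± 0.900 to 32.0 ± 1.26 CPM (SD, n = 4 each), a log2 fold change of 1.47 (standard error 0.05, edgeR adjusted p = 7.06e-26) or 2.77-fold. *Fst* ranked above 98.9% of the genes tested by log2 fold change, and *Inhba* above 98.1%.

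*Fstl3* (ENSMUSG00000020325, chromosome 10, 79777272 to 79782630, plus strand) had the lowest measured level of the members with vehicle, with 95 to 127 counts per vehicle culture. It stood at 2.06, 2.22, 2.67 and 2.27 CPM with vehicle and at 6.07, 6.88, 6.22 and 6.43 CPM with TGF-β1. Its log2 fold change of 1.47 (standard error 0.11, edgeR adjusted p = 1.76e-15) was close to that of *Fst* but less precise, with a 95% interval of the fold from 2.38 to 3.23. Of its exon bases, 47.3% overlap *Prss57* on the opposite strand, and whether the counting used strand is not given in the sources used here. *Prss57* itself was at no more than 0.426 CPM in any culture. How reads in the shared bases were counted is not given either. Any that were left out would make the levels of both genes too low, and with them the ratio of *Fstl3* to *Inhba*, which was not tested. Of the 50-base words in the transcripts of each member, 46.2% of those of *Fstl3* also occur in transcripts of other genes on either strand, against at most 6.98% for the other 8 members, the highest being *Acvr2a*. As both strands were searched, words from exons that overlap a gene on the opposite strand, such as *Prss57*, are among these. The share of words is thus not independent of the exon overlap.

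*Fstl1* (ENSMUSG00000022816, chromosome 16, 37776873 to 37836514, plus strand) was by far the most abundant of the 9 and rose by less. It stood at 670, 658, 716 and 703 CPM with vehicle and at 1045, 1081, 1054 and 1055 CPM with TGF-β1. The groups were separate, and the TGF-β1 cultures varied little among themselves. The log2 fold change was 0.62 (standard error 0.02, edgeR adjusted p = 2.53e-25), or 1.54-fold, and the difference of the means, 687 against 1059 CPM, was the largest of the 9 on the CPM scale.

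Since a ratio of genes within a culture does not depend on how libraries are scaled, antagonist and subunit were also set against each other per kb of exon. The level of *Fst* was 0.251 to 0.262 times that of *Inhba* in the vehicle cultures and 0.284 to 0.352 times in the TGF-β1 cultures, so that the mean ratio was 1.25 times higher. The ratio of *Fstl3* to *Inhba* went from between 0.0861 and 0.105 to between 0.115 and 0.121. The ratio of *Fstl1* to *Inhba* went the other way, from between 13.9 and 14.9 to between 9.41 and 10.4. In these 3 ratios the groups did not overlap. With the length of the longest transcript the mean ratio of *Fst* to *Inhba* was 0.402 with vehicle and 0.502 with TGF-β1, so only the change of a ratio, and not its level, is free of the length used. The ratio of *Inhba* to *Inhbb* was 1.04 to 1.15 with vehicle and 1.19 to 1.39 with TGF-β1, also without overlap. These ratios are given as a description without a test.

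**Figure D2:**
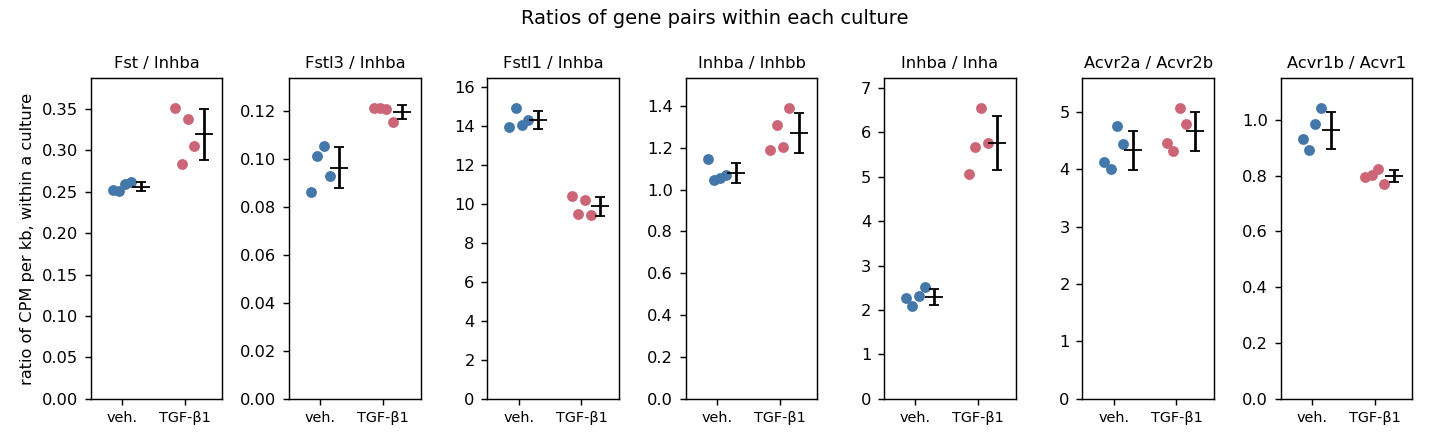
Ratio of the CPM per kb of exon of 7 gene pairs within each culture (axes from 0), with vehicle cultures in blue, TGF-β1 cultures in red and the mean with its SD in black. The groups overlap in *Acvr2a* to *Acvr2b* and are apart in the other 6 pairs, most in *Inhba* to *Inha*.

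The type II receptor genes were not called. *Acvr2a* (ENSMUSG00000052155, chromosome 2, 48814109 to 48903269, plus strand) stood at 30.2, 29.7, 27.7 and 29.4 CPM with vehicle and at 28.3, 28.4, 30.0 and 29.0 CPM with TGF-β1. The TGF-β1 cultures lay within the range of the vehicle cultures. Its log2 fold change was -0.02 (standard error 0.04, edgeR adjusted p = 0.814), and the 95% interval of the fold was 0.931 to 1.05. Of its exon bases, 7.84% overlap *Orc4* on the opposite strand, which was at 58.0 to 63.0 CPM. *Acvr2b* (ENSMUSG00000061393, chromosome 9, 119402118 to 119434995, plus strand) was lower, at 5.06, 5.13, 4.02 and 4.57 CPM with vehicle and 4.39, 4.53, 4.08 and 4.17 CPM with TGF-β1. Its log2 fold change was -0.13 (standard error 0.10, edgeR adjusted p = 0.348), and the interval of the fold, 0.791 to 1.06, leaves room for a fall that was not resolved. *Acvr2b* had 187 to 234 counts per culture. The ratio of *Acvr2a* to *Acvr2b* per kb was 4.00 to 4.76 with vehicle and 4.33 to 5.08 with TGF-β1.

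Both type I receptor genes rose, with smaller estimated fold changes than the subunit and antagonist genes. *Acvr1* (ENSMUSG00000026836, chromosome 2, 58388644 to 58567157, minus strand) stood at 53.4, 55.2, 54.9 and 52.5 CPM with vehicle and at 72.0, 72.5, 72.3 and 77.5 CPM with TGF-β1. TGF-β1 culture 8 was above the other 3 of its group, which lay close together. The log2 fold change was 0.45 (standard error 0.03, edgeR adjusted p = 1.13e-15), or 1.36-fold. *Acvr1b* (ENSMUSG00000000532, chromosome 15, 101174067 to 101213684, plus strand) stood at 45.5, 45.1, 49.4 and 50.1 CPM with vehicle and at 52.4, 53.2, 54.4 and 54.7 CPM with TGF-β1. Its groups were apart by a narrow margin, the log2 fold change was 0.18 (standard error 0.04, edgeR adjusted p = 0.000102), and the fold was 1.13. The ratio of *Acvr1b* to *Acvr1* per kb went from between 0.892 and 1.04 to between 0.772 and 0.822. *Acvr1c*, which encodes the other activin type I receptor, ALK7, was at 0.175 to 0.675 CPM over all cultures, and its log2 fold change of 0.23 was not called (95% interval -0.48 to 0.93, edgeR adjusted p = 0.654).

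**Figure D3:**
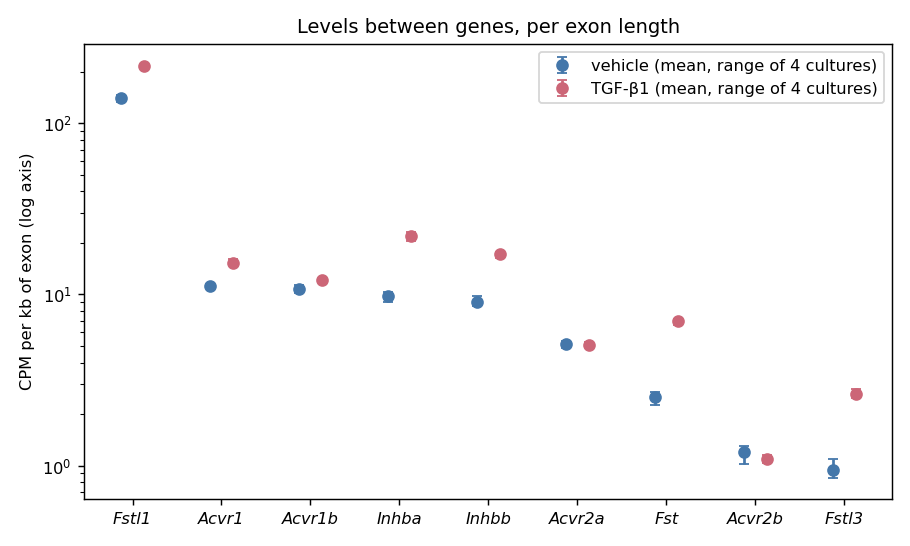
Level of each gene per kb of exon (CPM per kb, log axis), as the mean with the lowest and highest of 4 cultures, with vehicle in blue and TGF-β1 in red, ordered by the vehicle mean. *Fstl1* is at the top in both groups, and *Inhba* and *Inhbb* are above *Acvr1* and *Acvr1b* with TGF-β1 on this scale, whereas with the length of the longest transcript *Acvr1* (22.3) is above *Inhba* (21.9 CPM per kb).

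The order of the levels per kb of exon differed between the groups. With vehicle, *Fstl1* led with 140 ± 5.55 CPM per kb (SD, n = 4), 12.5 times the next gene. *Acvr1* (11.2), *Acvr1b* (10.8), *Inhba* (9.79) and *Inhbb* (9.09) followed at similar levels, and each of these overlapped its neighbour in the order. Below them were *Acvr2a* (5.14), *Fst* (2.51), *Acvr2b* (1.20) and *Fstl3* (0.943 CPM per kb), of which only *Acvr2b* and *Fstl3* overlapped. With TGF-β1 no neighbours overlapped, and the order was *Fstl1* (215), *Inhba* (21.9), *Inhbb* (17.2), *Acvr1* (15.2), *Acvr1b* (12.1), *Fst* (6.96), *Acvr2a* (5.09), *Fstl3* (2.62) and *Acvr2b* (1.09 CPM per kb). The place of *Fstl3* in both orders is subject to the limit from its exon overlap given above. With the length of the longest transcript in place of all exons, the vehicle level of *Fst* was 3.94 CPM per kb. With that length *Acvr1*, at 16.4 CPM per kb with vehicle and 22.3 with TGF-β1, stood above *Inhba* (9.79 and 21.9) and *Inhbb* (9.09 and 17.2) in both groups, so the order of *Acvr1* and the subunit genes with TGF-β1 depends on the length used.

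Other genes of the activin pathway moved in both directions. Of 50 such genes in the list, 39 were tested, of which 16 rose and 9 fell (edgeR adjusted p under 0.05), beside 20.9% and 20.3% of all genes tested, and their median log2 fold change was 0.08. The largest fall, a log2 fold change of -2.06, was that of *Bmp7*, which encodes a BMP ligand and stood at a mean of 1.56 CPM with vehicle and 0.374 CPM with TGF-β1. Among called genes with a mean of at least 1 CPM over all 8 cultures, a limit that the fall itself put *Bmp7* under, the 5 largest changes were rises. *Acvrl1*, which encodes the type I receptor ALK1, had the largest of these, from 9.14 ± 0.949 to 22.5 ± 1.39 CPM (SD, n = 4 each), with a log2 fold change of 1.30 (standard error 0.06, edgeR adjusted p = 3.83e-21). *Pmepa1*, an inhibitor of Smad activation, rose by a log2 fold change of 1.10, *Skil*, a Smad corepressor, by 0.97, *Pcsk5*, a proprotein convertase, by 0.92 and *Grem1*, a secreted BMP antagonist, by 0.79.

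By role, 3 of the 6 related ligands tested rose and 2 fell, and 5 of the 12 co-receptors, antagonists and receptor partners tested rose and 3 fell. Of the 12 signal transducers 5 rose and 3 fell, of the 4 proprotein convertases 2 rose and 1 fell, and of the 5 other subunits, receptors and follistatin-like genes only *Acvrl1* was called. These groups of 4 to 12 genes are small. The shares that fell went from 0 of 5 (other subunits, receptors and follistatin-like genes) to 2 of 6 (related ligands), beside 20.3% of all genes tested. The shares that rose went from 1 of 5 to 3 of 6 and 2 of 4, beside 20.9% of all genes tested. *Furin*, whose product cleaves the activin precursors, was abundant and rose from 257 ± 4.71 to 328 ± 5.03 CPM (SD, n = 4 each), a log2 fold change of 0.35. *Tgfbr3*, which encodes betaglycan, the co-receptor for inhibin, fell from 326 ± 6.51 to 295 ± 10.3 CPM (SD, n = 4 each), a log2 fold change of -0.15.

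**Figure D4:**
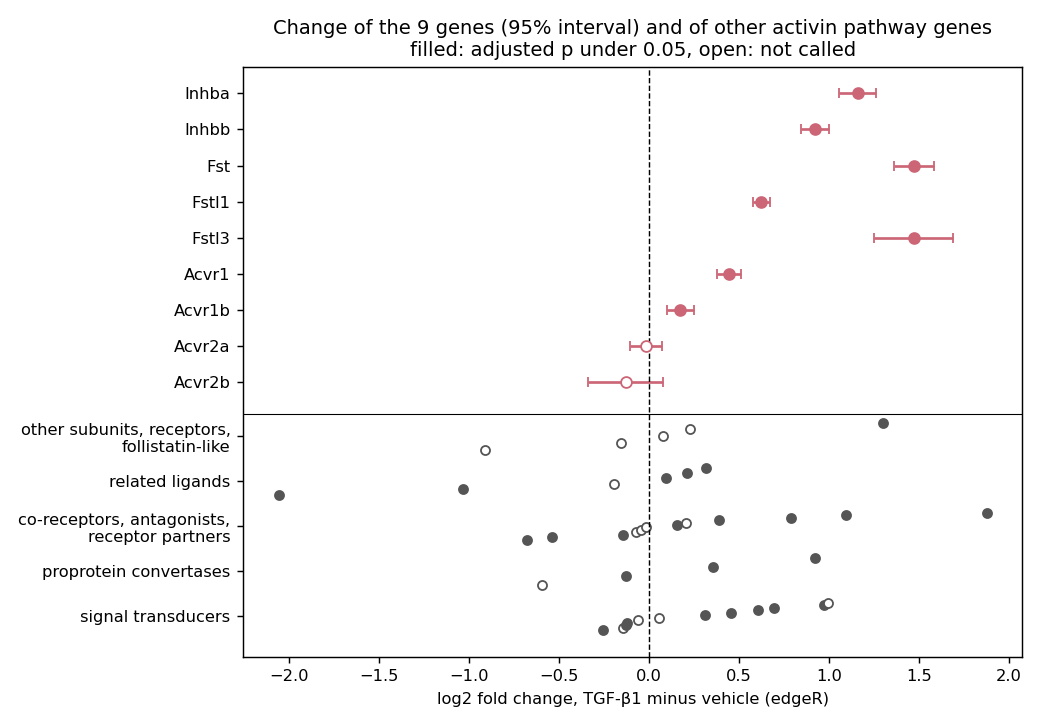
Log2 fold change, TGF-β1 minus vehicle, of the 9 genes (red, with 95% intervals) and of 39 other activin pathway genes by role (grey points), filled where the edgeR adjusted p was under 0.05. The 7 filled red points lie between 0.18 and 1.47, and the grey points spread to both sides of 0.

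The genes most like *Inhba* and *Fst* in pattern were sought among 16486 others of at least 1 CPM, by the root mean square difference of log2 CPM centred on the vehicle mean over the 8 cultures. Nearest to *Inhba* were *Ddah1*, which encodes an enzyme that breaks down methylarginines (difference 0.0401), *Thbs1*, which encodes thrombospondin-1 (0.0471), and *Acsl4*, which encodes a long-chain acyl-CoA synthetase (0.0494). Nearest to *Fst* were *Mcf2l* (0.0718) and *Arhgef19* (0.0820), with *Gm6093* (0.0775) between them, and *Fstl3* was at rank 9 (difference 0.112). *Inhbb* was at rank 142 for *Inhba*. With groups of 4 that differ in all of these genes, the measure reflects mostly the size of the change with TGF-β1.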

How the data were processed

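Total RNA of 8 mouse brain pericyte cultures was sequenced after a stranded total RNA preparation. Per the methods and the submitters' processing notes, alignment used STAR 2.7.5c (2-pass, mm10), samtools 1.15 took out PCR duplicates, and featureCounts 2.0.3 made the gene counts. The authors deposited these as raw counts, 1 library per culture, with no scaling. The annotation, the strand setting and how ambiguous reads were treated are not given in the sources used here.

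Identifiers were paired with symbols and positions of GENCODE M21 (GRCm38, which is mm10; 54495 of 54532 matched). Counts were tested with edgeR 4.0.16 in R 4.3.3 (filterByExpr, TMM factors, robust quasi-likelihood test, Benjamini-Hochberg adjustment over 22544 genes, threshold 0.05). The standard error was the size of the log2 fold change divided by the square root of F. Levels between genes are TMM-scaled CPM per kb of the union of exons. The code was tested on simulated data. Alternatives were DESeq2 1.42.0 without a filter before the model, other scalings and filters, halved counts (68.5% to 70.2% of counts from 1 to 20 were even, so both mates of a pair may have been counted), and each culture left out.

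The 9 genes, the lists and the rule for naming genes were chosen with earlier results of these data known. Named were the 9, *Inha*, *Acvr1c*, the 5 largest called changes of at least 1 CPM in the pathway list, genes that a background sentence needs and the 3 genes nearest to *Inhba* and to *Fst*. Other genes were chosen after their values were seen. Promoter windows are those of RefSeq, of which the 250 bases before the start were searched on both strands.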

Additional observations from a re-analysis of the deposited data

Results flagged for a closer look

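*Acvr1* was at 77.5 CPM in TGF-β1 culture 8, while the nearest of the other 3 TGF-β1 cultures was at 72.5 CPM, a gap that took up 0.903 of the group's range. Of 18 groups of 4 values examined (the 9 genes in each treatment), 1 had a culture this far from the others, where chance at 1 in 20 gives 0.9. The fold change of *Acvr1* remained called without that culture.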

How the results depend on the processing

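The 7 genes that rose were called in the same direction under all 15 alternatives for the tool, scaling, filter, halved counts and each culture left out, and *Acvr2b* was lower and not called in each. *Acvr2a* was not called in any, but its log2 fold change, near 0, changed sign to 0.0059 without vehicle culture 1. Over the cultures left out in turn, its log2 fold change ranged from -0.038 to 0.0059, that of *Inhba* from 1.12 to 1.20, that of *Fst* from 1.43 to 1.52 and that of *Acvr1b* from 0.15 to 0.20. The number of all genes that rose ranged from 4265 to 4798 over the alternatives, and that of the other pathway genes that rose from 15 to 17. With the length of the longest transcript in place of all exons, the vehicle levels were 3.94 CPM per kb for *Fst*, 181 for *Fstl1*, 1.18 for *Fstl3*, 16.4 for *Acvr1* and 1.48 for *Acvr2b*, since that length is shorter. The pair ratios moved by less than 1 SD with halved counts. With that length, an alternative chosen after seeing the data, the mean ratios with vehicle and with TGF-β1 were 0.402 and 0.502 for *Fst* to *Inhba*, 0.120 and 0.150 for *Fstl3* to *Inhba*, 18.5 and 12.8 for *Fstl1* to *Inhba*, 3.50 and 3.77 for *Acvr2a* to *Acvr2b* and 0.656 and 0.544 for *Acvr1b* to *Acvr1*, while those of *Inhba* to *Inhbb* and to *Inha* kept their values. No paired analysis was possible because the labels of the groups share no replicate number. If isolates were shared between the groups, the p-values do not use it. Counts per gene do not show activin or follistatin protein.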

Other observations

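Vehicle culture 3 was the highest of the 4 in *Inhba*, *Inhbb*, *Fst*, *Fstl1* and *Fstl3* (5 of the 9 genes), whereas it was the highest in 24.5% of all genes tested, and it was the lowest in *Acvr2a* and *Acvr2b*. Its total of 47651397 counts was the largest of the 8. Among the TGF-β1 cultures, culture 6 was the highest in *Inhba*, *Inhbb*, *Fstl1*, *Fstl3* and *Acvr2b* (27.9% of all genes tested) and the lowest in *Fst*, and culture 5 was the lowest in *Inhba*, *Fstl1*, *Fstl3*, *Acvr1*, *Acvr1b* and *Acvr2a* (6 of the 9, against 25.4% of all genes tested). These orders rest on small differences between single cultures and were noticed after the values were seen.

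Among related ligands that can bind activin type II receptors, *Bmp7* fell from 1.56 ± 0.312 to 0.374 ± 0.0768 CPM (SD, n = 4 each), a log2 fold change of -2.06 (edgeR adjusted p = 6.36e-10), at a level of few counts. *Bmp2* also fell, from a mean of 0.911 to 0.445 CPM, a log2 fold change of -1.03 (edgeR adjusted p = 0.00109). *Bmp4*, *Bmp6* and *Gdf11* had log2 fold changes of 0.31, 0.21 and 0.09 (edgeR adjusted p = 1.2e-08, 2.98e-05 and 0.00833). In *Gdf11*, which encodes a ligand that follistatin binds, the groups overlapped. *Mstn*, which encodes myostatin, was too low to be tested.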
